A study of Mus musculus with 8 samples.

Results

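The lysosome takes apart protein, glycan and lipid. Most of the 38 genes described here encode its cathepsins, glycosidases and sulfatases, its membrane and lipid-handling proteins or the proton pump that acidifies it. Tfeb, a transcription factor, was counted with the membrane and lipid-handling proteins. Gm2a and Psap, which encode helpers of lipid hydrolases, were counted with the glycosidases and sulfatases. Members were taken by gene name, and every probe set of the array annotated to 1 of these names alone was used. Of the 38 genes 37 were measured, on 84 of the 45101 probe sets of the array, and all 37 passed the minimum signal and were tested. Hyal1 was read only by probe sets shared with a neighbouring gene and was not analysed here.

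The study asked which genes depend on EKLF (Klf1), an erythroid zinc finger transcription factor, by comparing total RNA of whole E14.5 mouse fetal livers on Affymetrix arrays. The KO group was 4 Eklf-/- livers (KO replicates 2 to 5) from a B6 line carrying a germline deletion, made with an engineered BAC construct and E2A-Cre mice. The WT group was 4 wild-type livers (WT replicates 1 to 4) of the same age. Neither group was treated, and no Cre-only control was analysed here. The sample names of the groups carry different codes, whose meaning is not given, so whatever these mark and genotype cannot be told apart. The sources used here do not say whether the livers came from separate litters, and p-values measure the spread between these arrays.

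Klf1, the targeted gene, had log2 signals of 10.81, 10.56, 10.65 and 10.59 in KO replicates 2 to 5, against 14.04, 13.87, 13.98 and 13.90 in WT replicates 1 to 4. It was 9.81-fold lower in KO livers. Signals of different arrays were correlated at 0.956 to 0.978 among KO arrays and at 0.974 to 0.978 among WT arrays, and at 0.859 to 0.909 across genotypes. KO replicates 2 and 4 correlated at 0.978 with each other, as did replicates 3 and 5 at 0.977, while the other KO pairs lay at 0.956 to 0.962. WT replicate 1 was the one female array by Xist (log2 signal 13.03, against 5.37 to 6.84 on the other 7 arrays). Hepatocyte markers were high on every array (summed signal 137108 to 162225 in KO livers, against 205899 to 225507 in WT livers), which fits the liver label.

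Lysosomal enzymes are made in the endoplasmic reticulum, tagged with mannose 6-phosphate in the Golgi and delivered to the lysosome, where most work only in acid. The V-ATPase pumps the protons, membrane proteins such as LAMP2 line the wall, and transporters such as NPC1 carry products out. Many of these genes share in their promoters the letters CACGTG, the core of an element bound by TFEB and its relatives TFE3 and MITF, the factors best known for driving lysosomal genes together. In the fetal liver, macrophages of the erythroid islands are rich in lysosomes, and maturing red cells clear their own organelles through them.

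The promoters that carry these letters in a member whose level is described here are shown for the 6 members with the longer form TCACGTGA, and for Lamp1, which holds CACGTG but did not pass the test. The sequences are from RefSeq (GRCm38.p6), read 5′ to 3′ on the strand of the gene, with CACGTG in capitals.
Ctsa, chr2:164833740-164833792, plus strand: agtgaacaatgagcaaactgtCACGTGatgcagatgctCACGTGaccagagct
Ctsd, chr7:142387899-142387946, minus strand: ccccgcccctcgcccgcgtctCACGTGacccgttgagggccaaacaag
Gla, chrX:134601173-134601253, minus strand: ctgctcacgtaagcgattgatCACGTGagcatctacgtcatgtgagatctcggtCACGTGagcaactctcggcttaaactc
Mcoln1, chr8:3500453-3500500, plus strand: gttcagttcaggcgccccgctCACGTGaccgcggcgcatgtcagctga
Atp6v0d1, chr8:105566045-105566088, minus strand: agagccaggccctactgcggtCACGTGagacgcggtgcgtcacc
Atp6v1a, chr16:44139364-44139411, minus strand: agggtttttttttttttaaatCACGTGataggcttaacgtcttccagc
Lamp1, chr8:13159080-13159173, plus strand: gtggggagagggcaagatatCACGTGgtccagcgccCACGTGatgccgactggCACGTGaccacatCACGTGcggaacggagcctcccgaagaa
Ctsa and Gla carry the 6 letters in 2 places each in these stretches and Lamp1 in 4, and in the others they stand once. The Ctsa, Atp6v0d1 and Lamp1 stretches cross the annotated start of the transcript, and those of Ctsd, Gla, Mcoln1 and Atp6v1a lie before it.

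RefSeq promoters, each from 250 bases before to 50 bases after a transcript start, were found for 32 of the 38 members. CACGTG, which reads the same on both strands, stood in 12 of these 32 genes and in 12 of their 36 windows (33.3%), against 7.15% of 32851 windows of all genes. Of the 12, Atp6v0d1, Atp6v1a, Ctsa, Ctsd, Ctsl, Gaa, Gla, Glb1, Mcoln1, Naglu and Sgsh rose in KO livers and Lamp1 was not called. Of the 19 measured members whose window lacks it, 10 rose, 1 fell and 8 were not called. Among all genes tested 25.5% were called higher. These calls are under the deposited scaling. With the arrays scaled to their 75th percentile, Atp6v0d1, Ctsd, Ctsl, Gaa, Gla, Mcoln1 and Naglu lost theirs. So did Arsb, Atp6ap1, Ids, Lipa, Manba, Neu1 and Psap, which lack the letters. TCACGTGA, which contains CACGTG, stood in 6 member windows (16.7%), against 0.974% of all windows, and those 6 genes rose under the deposited scaling. The letters CACCC, part of the motif EKLF binds, stood on either strand in 19 of the 36 member windows (52.8%), against 57.5% of all windows. These are counts of letters and show no binding.

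Across the 37 genes, 24 were higher in KO livers, 3 were lower and 10 did not pass the test. The fit was limma on log2 signal over all 23379 probe sets with a KO or WT mean signal above 100, with Benjamini-Hochberg adjustment over all of them, a gene was read on its probe set of highest mean, and called means an adjusted p under 0.05. Higher calls were 64.9% of the lysosomal genes and 25.5% of all 11275 genes tested, and lower calls were 8.11% and 21.0%. The lysosomal genes were chosen with earlier results of these data known, so the excess need not hold for lysosomal genes in general. Of 69 other lysosomal genes tested, 30.4% were higher and 13.0% lower. Called in either direction were 46.5% of all genes. Among single probe sets, 32 of the 66 tested for these genes were higher and 6 lower, against 34.4% and 17.7% of all probe sets tested, 52.2% together. In 20 lysosomal genes the KO arrays were all above the WT arrays, against 24.4% of all genes, and in 3 they were all below, against 20.9%. The median log2 difference was 0.45 over the lysosomal genes and 0.06 over all genes tested. The rises were modest in size, with Hexa the largest on these probe sets at 2.50-fold. In whole livers, more lysosomal RNA per cell and more of the cells rich in it cannot be told apart.

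**Figure D1:**
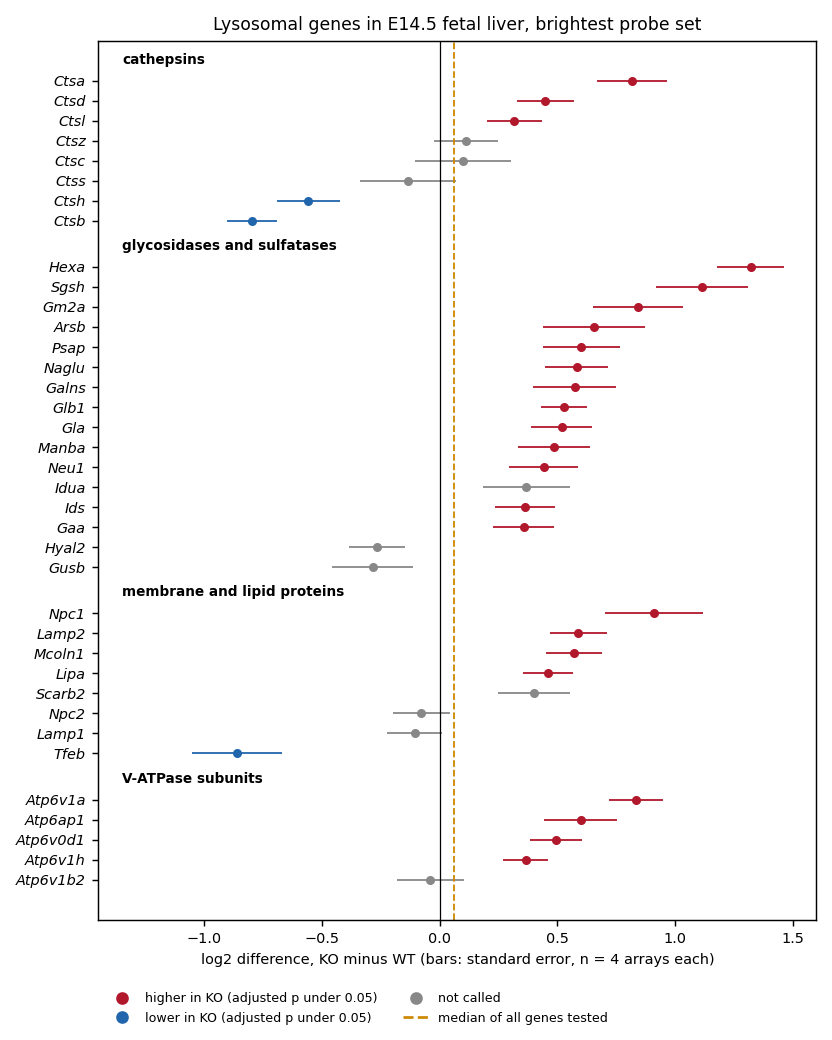
Log2 difference between KO and WT livers (x axis, KO minus WT, with bars of 1 standard error) for the 37 measured lysosomal genes on their brightest probe sets, grouped by role and coloured by call, n = 4 arrays each. The glycosidase and sulfatase group lies right of 0 except for Hyal2 and Gusb, while the cathepsins fall on both sides, with Ctsb and Ctsh called lower.

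Of 8 cathepsins measured, Ctsa, Ctsd and Ctsl rose, Ctsb and Ctsh fell and 3 did not pass the test, and their median difference was 0.11. These shares, 37.5% higher and 25% lower, were not far from the 25.5% and 21.0% of all genes, so the count says little of the cathepsins as a group. These are the proteases of the lysosome, most of them cysteine enzymes.

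Ctsa is a serine carboxypeptidase that also shields β-galactosidase and sialidase from breakdown in a shared complex. Ctsa (probe set 1448128_at) measured 10.92, 11.34, 10.91 and 11.51 in KO replicates 2 to 5, against 10.40, 10.32, 10.34 and 10.35 in WT replicates 1 to 4, on the log2 scale. All KO arrays were above all WT arrays, and KO replicates 3 and 5 were the higher pair. For Ctsa the log2 difference was 0.81 (SE 0.15), or 1.76-fold higher in KO livers, with an adjusted p of 0.0021 by limma. Its other tested probe set differed by 0.28 and did not pass (adjusted p = 0.13 by limma).

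Ctsd is the main aspartic protease of the lysosome. On probe set 1448118_a_at, Ctsd had log2 signals of 12.50, 12.70, 12.35 and 12.77 in the KO livers, against 12.18, 12.25, 12.09 and 12.02 in the WT livers. The groups did not overlap, though KO replicate 4 stood only slightly above the highest WT array. KO livers were 1.36-fold higher (difference 0.45 ± 0.12 SE, adjusted p = 0.013 by limma). Ctsl, a broad cysteine endopeptidase, also rose, by the smallest margin of the 3. In KO replicates 2 to 5 Ctsl (1451310_a_at) gave log2 signals of 13.51, 13.78, 13.38 and 13.70, against 13.24, 13.37, 13.28 and 13.22 in WT replicates 1 to 4. The lowest KO array and the highest WT array were nearly level. This made Ctsl 1.25-fold higher in KO livers, a log2 difference of 0.32 ± 0.12 (SE) with adjusted p = 0.045 by limma. This call is among the least secure, since it was lost in 7 of the 8 fits that left out an array (adjusted p 0.020 to 0.106 by limma).

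Ctsb, the most studied cysteine cathepsin, which cuts both within and at the end of peptides, fell. The Ctsb signals (1417490_at, log2) were 13.06, 13.24, 13.15 and 13.44 in KO livers, against 14.07, 13.97, 14.02 and 14.00 in WT livers. All KO arrays were below all WT arrays, and the WT arrays were tightly grouped. It was 1.74-fold lower in KO livers (log2 difference -0.80, SE 0.11, adjusted p = 0.00041 by limma). Of its 4 tested probe sets 3 were lower and none was higher. Ctsh, an aminopeptidase of the same family, fell too. Log2 signals of Ctsh (probe set 1418365_at) were 10.05, 10.19, 10.25 and 10.60 in KO replicates 2 to 5, against 10.96, 10.82, 10.69 and 10.85 in WT replicates 1 to 4. The groups did not overlap, with KO replicate 5 nearest to the WT arrays. For Ctsh the log2 difference was -0.56 (SE 0.13), or 1.47-fold lower in KO livers, with an adjusted p of 0.0079 by limma. Its other probe set differed by -0.90.

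Ctsc, which activates the serine proteases of granulocytes and cytotoxic cells, spread widely among KO livers. Ctsc (probe set 1416382_at) measured 11.72, 11.94, 11.70 and 12.65 in KO replicates 2 to 5, against 12.01, 11.90, 11.79 and 11.92 in WT replicates 1 to 4, on the log2 scale. KO replicate 5 was above every WT array and replicates 2 and 4 were below them all. The difference of 0.10 (SE 0.20) did not pass (adjusted p = 0.7 by limma). Ctss, the cathepsin of antigen-presenting cells, had a like spread, with log2 signals of 10.41 to 11.46 in KO livers, against 10.95 to 11.27 in WT livers. It differed by -0.14 (adjusted p = 0.60 by limma). Ctsz, a carboxypeptidase, differed by 0.11 (adjusted p = 0.51 by limma), and its 3 tested probe sets did not share a sign.

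Most of the glycosidases and sulfatases rose. Of 16 measured, with the helper proteins Gm2a and Psap counted among them, 13 were higher in KO livers. Another 3 did not pass and 0 were lower, with a median difference of 0.52 over the 16. Here 81.2% were called higher, against 25.5% of all genes, and the KO arrays were all above the WT arrays in 10. The study's own pathway grouping took genes changed on these arrays that also had EKLF bound at the promoter by ChIP-chip. It lists Hexa, Gm2a, Galns and Arsb under chondroitin sulfate degradation. Its expression values are those of these same arrays, so the rise of those 4 genes is no independent evidence.

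Hexa and Gm2a act on the same lipid: Hexa encodes the α subunit of β-hexosaminidase, and the Gm2a protein lifts GM2 ganglioside out of the membrane for it. On probe set 1449024_a_at, Hexa had log2 signals of 11.26, 11.66, 11.63 and 11.89 in the KO livers, against 10.25, 10.14, 10.42 and 10.35 in the WT livers. The KO arrays were all far above the WT arrays, and this was the largest fitted difference among the 37 genes on their brightest probe sets. This made Hexa 2.50-fold higher in KO livers, a log2 difference of 1.32 ± 0.14 (SE) with adjusted p = 0.00014 by limma. In KO replicates 2 to 5 Gm2a (1448241_at) gave log2 signals of 9.80, 10.29, 10.14 and 10.76, against 9.29, 9.56, 9.31 and 9.46 in WT replicates 1 to 4. The groups did not overlap, and KO replicate 5 was highest and replicate 2 lowest. It was 1.79-fold higher in KO livers (log2 difference 0.84, SE 0.19, adjusted p = 0.0061 by limma). Its second probe set differed by 1.88 in the same direction. Psap encodes prosaposin, the precursor of the saposins that help other sphingolipid hydrolases reach their lipids. The Psap signals (1415687_a_at, log2) were 12.48, 12.77, 12.57 and 13.25 in KO livers, against 12.15, 12.16, 12.21 and 12.14 in WT livers. The WT arrays were nearly level with each other, and all KO arrays were above them. For Psap the log2 difference was 0.60 (SE 0.16), or 1.52-fold higher in KO livers, with an adjusted p of 0.014 by limma. The other tested probe set of Psap differed by 0.28 and did not pass (adjusted p = 0.22 by limma), and the call was lost on the mean of both.

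Several rising genes break down the sulfated glycosaminoglycans. Sgsh and Naglu remove sulfate and N-acetylglucosamine from heparan sulfate. Log2 signals of Sgsh (probe set 1438731_at) were 7.28, 6.84, 7.70 and 7.31 in KO replicates 2 to 5, against 6.34, 5.91, 6.02 and 6.39 in WT replicates 1 to 4. The groups were fully apart, but the WT mean lay under a signal of 100, so only a bound on the fold is given. KO livers were at least 1.56-fold higher (difference 1.11 ± 0.19 SE, adjusted p = 0.0016 by limma). Naglu (probe set 1417706_at) measured 7.66, 7.94, 7.83 and 8.21 in KO replicates 2 to 5, against 7.39, 7.21, 7.28 and 7.44 in WT replicates 1 to 4, on the log2 scale. All KO arrays exceeded all WT arrays. This made Naglu 1.50-fold higher in KO livers, a log2 difference of 0.58 ± 0.13 (SE) with adjusted p = 0.0066 by limma. Arsb and Galns remove sulfate from N-acetylgalactosamine and galactose in dermatan, chondroitin and keratan sulfate. On probe set 1429189_at, Arsb had log2 signals of 9.38, 8.998, 9.13 and 10.07 in the KO livers, against 8.69, 8.75, 8.66 and 8.85 in the WT livers. KO replicate 5 stood well above the other KO arrays, and all 4 were above WT. It was 1.58-fold higher in KO livers (log2 difference 0.66, SE 0.22, adjusted p = 0.031 by limma). In KO replicates 2 to 5 Galns (1448744_at) gave log2 signals of 8.84, 8.74, 8.93 and 9.50, against 8.59, 8.55, 8.31 and 8.28 in WT replicates 1 to 4. The same array was again highest, and the groups did not overlap. For Galns the log2 difference was 0.57 (SE 0.18), or 1.49-fold higher in KO livers, with an adjusted p of 0.023 by limma.

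Ids removes the sulfate of iduronate in heparan and dermatan sulfate, and Idua then the iduronic acid itself. The Ids signals (1455481_at, log2) were 10.02, 9.93, 9.68 and 9.63 in KO livers, against 9.66, 9.35, 9.47 and 9.34 in WT livers. WT replicate 1 lay above KO replicate 5, so the groups overlapped. KO livers were 1.28-fold higher (difference 0.36 ± 0.13 SE, adjusted p = 0.041 by limma). The Idua values were 8.46, 8.91, 8.60 and 9.22 in KO replicates 2 to 5, against 8.45, 8.71, 8.18 and 8.39 in WT replicates 1 to 4. The brightest probe set of Idua overlapped between groups and did not pass (difference 0.37, adjusted p = 0.13 by limma), while its second was called higher (difference 0.58).

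Glb1, Neu1, Gla, Gaa and Manba each cut a sugar from the end of a chain: β-galactose, sialic acid, α-galactose, the glucose of glycogen and β-mannose. Log2 signals of Glb1 (probe set 1416205_at) were 9.49, 9.63, 9.52 and 9.58 in KO replicates 2 to 5, against 9.06, 9.11, 8.86 and 9.06 in WT replicates 1 to 4. The KO arrays were close together (SD 0.06), the tightest KO values of any member, and all were above the WT arrays. This made Glb1 1.44-fold higher in KO livers, a log2 difference of 0.53 ± 0.10 (SE) with adjusted p = 0.0022 by limma. Gla (probe set 1418248_at) measured 9.15, 9.31, 9.25 and 9.68 in KO replicates 2 to 5, against 8.86, 8.76, 8.93 and 8.78 in WT replicates 1 to 4, on the log2 scale. All KO arrays were above all WT arrays. It was 1.43-fold higher in KO livers (log2 difference 0.52, SE 0.13, adjusted p = 0.0098 by limma). On probe set 1450626_at, Manba had log2 signals of 8.58, 8.88, 8.77 and 9.30 in the KO livers, against 8.38, 8.46, 8.29 and 8.47 in the WT livers. The groups were apart, with KO replicate 5 highest. For Manba the log2 difference was 0.48 (SE 0.15), or 1.40-fold higher in KO livers, with an adjusted p of 0.027 by limma. In KO replicates 2 to 5 Neu1 (1416831_at) gave log2 signals of 8.89, 9.35, 9.004 and 9.44, against 8.75, 8.64, 8.63 and 8.90 in WT replicates 1 to 4. WT replicate 4 slightly exceeded KO replicate 2. KO livers were 1.36-fold higher (difference 0.44 ± 0.15 SE, adjusted p = 0.033 by limma). The Gaa signals (1436849_x_at, log2) were 9.78, 10.11, 10.01 and 10.20 in KO livers, against 9.69, 9.79, 9.44 and 9.76 in WT livers. WT replicate 2 slightly exceeded KO replicate 2 here as well. This made Gaa 1.28-fold higher in KO livers, a log2 difference of 0.36 ± 0.13 (SE) with adjusted p = 0.044 by limma. The second probe set of Gaa differed by 0.84 (adjusted p = 0.00074 by limma).

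Several of these calls lay near the threshold. Without 1 array in turn, the number of glycosidase and sulfatase genes higher in KO ranged from 7 to 12, and it was 7 without WT replicate 3. Arsb, Galns, Ids, Manba, Neu1 and Gaa each lost the call in at least 1 of the 8 fits (Arsb without KO replicate 2 or WT replicate 1, 2 or 3, and Galns without WT replicate 3 or 4). Ids lost it in 5, Manba in 3, Neu1 in 5 and Gaa in 7. Their differences stayed positive throughout, at 0.28 to 0.44 for Gaa, 0.29 to 0.43 for Ids and 0.35 to 0.54 for Neu1.

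Hyal2 and Gusb did not pass the test, and both had a negative difference. Hyal2, a hyaluronidase tethered to the cell surface, differed by -0.27 (adjusted p = 0.091 by limma), with log2 signals of 8.83 to 9.24 in KO livers, against 9.21 to 9.45 in WT livers. Gusb, β-glucuronidase, differed by -0.29 (adjusted p = 0.19 by limma), at 10.32 to 11.16 in KO livers, against 10.94 to 11.16 in WT livers.

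**Figure D2:**
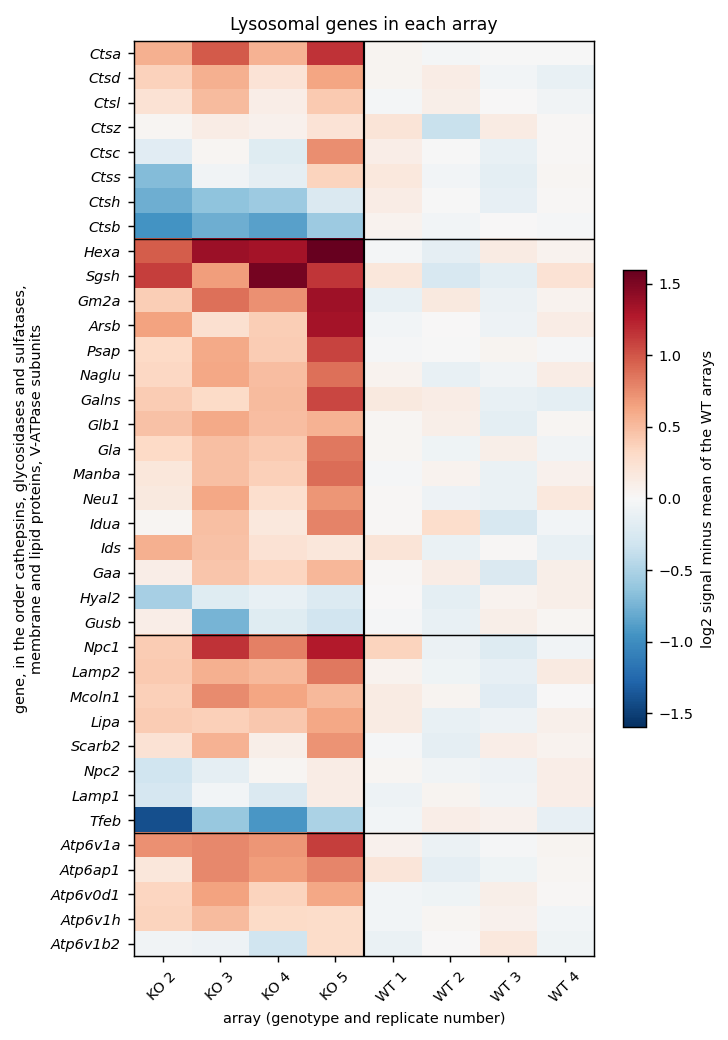
Log2 signal of each of the 37 lysosomal genes (rows, brightest probe set) on each array (columns, KO replicates 2 to 5 left of WT replicates 1 to 4), shown as the difference from the mean of the WT arrays. KO replicate 5 is the strongest column among the rising genes, and the Ctsb, Ctsh and Tfeb rows are low on every KO array.

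In the group of membrane and lipid-handling proteins, where the transcription factor Tfeb was also counted, Lamp2, Npc1, Lipa and Mcoln1 rose. Tfeb fell and Lamp1, Npc2 and Scarb2 did not pass, with a median difference of 0.43 over the 8. Higher calls were 50% and lower calls 12.5% of them, against 25.5% and 21.0% of all genes. Npc1 carries cholesterol across the lysosomal membrane after Npc2 hands it over in the lumen. Log2 signals of Npc1 (probe set 1423086_at) were 8.12, 8.88, 8.53 and 8.99 in KO replicates 2 to 5, against 8.07, 7.62, 7.51 and 7.67 in WT replicates 1 to 4. KO replicate 2 was just above WT replicate 1, and the other KO arrays were clearly higher. It was 1.88-fold higher in KO livers (log2 difference 0.91, SE 0.21, adjusted p = 0.0063 by limma). Npc2 differed by -0.08 (adjusted p = 0.61 by limma), at 12.30 to 12.75 in KO livers, against 12.55 to 12.73 in WT livers. Lipa frees that cholesterol from its esters. Lipa (probe set 1450872_s_at) measured 10.28, 10.26, 10.30 and 10.49 in KO replicates 2 to 5, against 10.00, 9.75, 9.79 and 9.96 in WT replicates 1 to 4, on the log2 scale. The groups did not overlap. For Lipa the log2 difference was 0.46 (SE 0.11), or 1.37-fold higher in KO livers, with an adjusted p of 0.0066 by limma. Of its 3 tested probe sets 2 were called higher, and the other differed by 0.35 (adjusted p = 0.060 by limma).

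Lamp1 and Lamp2 are the abundant, heavily glycosylated proteins of the lysosomal wall, and LAMP2 also serves in chaperone-mediated autophagy. On probe set 1428094_at, Lamp2 had log2 signals of 12.21, 12.35, 12.31 and 12.63 in the KO livers, against 11.85, 11.71, 11.66 and 11.93 in the WT livers. All KO arrays were above all WT arrays. KO livers were 1.50-fold higher (difference 0.59 ± 0.12 SE, adjusted p = 0.0039 by limma). Of the 4 tested probe sets of Lamp2, 2 were called higher. The others differed by 0.33 and 0.56 and did not pass (adjusted p = 0.17 and 0.089 by limma). Lamp1 overlapped between groups. In KO replicates 2 to 5 Lamp1 (1415880_a_at) gave log2 signals of 12.53, 12.76, 12.57 and 12.93, against 12.72, 12.84, 12.74 and 12.91 in WT replicates 1 to 4. The difference of -0.11 (SE 0.12) did not pass (adjusted p = 0.47 by limma). Mcoln1 is the calcium channel of the lysosomal membrane. The Mcoln1 signals (1416672_s_at, log2) were 8.78, 9.17, 9.04 and 8.92 in KO livers, against 8.54, 8.46, 8.23 and 8.41 in WT livers. The groups were apart. It was 1.48-fold higher in KO livers (log2 difference 0.57, SE 0.12, adjusted p = 0.0042 by limma). The other tested probe sets of Mcoln1 differed by 0.32 and 0.26 and did not pass (adjusted p = 0.093 and 0.44 by limma). Scarb2, the receptor that carries β-glucocerebrosidase to the lysosome, differed by 0.40 and narrowly missed the threshold (adjusted p = 0.052 by limma).

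Tfeb, the factor that binds CACGTG elements in lysosomal promoters, fell in KO livers. Log2 signals of Tfeb (probe set 1422566_at) were 6.64, 7.44, 7.11 and 7.54 in KO replicates 2 to 5, against 8.01, 8.15, 8.11 and 7.92 in WT replicates 1 to 4. All KO arrays were below all WT arrays, with KO replicate 2 lowest of all. For Tfeb the log2 difference was -0.86 (SE 0.19), or 1.82-fold lower in KO livers, with an adjusted p of 0.0055 by limma. This call was lost under scaling to hybridisation controls. It was also lost with the alternative test that allows unequal variances, after Benjamini-Hochberg adjustment. The paper's own test, for which it names no such adjustment, was not rerun. Tfe3, a relative of Tfeb and not among the 38 genes, went the other way. Tfe3 had log2 signals of 9.20, 9.61, 9.35 and 9.38 in KO replicates 2 to 5, against 8.54, 8.44, 8.28 and 8.18 in WT replicates 1 to 4. It was 2.03-fold higher in KO livers (difference 1.02, SE 0.13, adjusted p = 0.00028 by limma). Flcn, the GTPase activator that holds TFE3 and TFEB in the cytoplasm when nutrients are present, had 10.21, 11.34, 10.35 and 11.29 in KO replicates 2 to 5, against 9.58, 9.61, 9.35 and 9.78 in WT replicates 1 to 4. Flcn was 2.32-fold higher (difference 1.22, SE 0.27, adjusted p = 0.0055 by limma), and its second probe set differed by 1.62. Mitf differed by -0.08 (adjusted p = 0.68 by limma) and Tfec by 0.50 (adjusted p = 0.098 by limma), and both were looked at after their values were known. RNA levels of these factors do not report where the proteins are in the cell.

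The V-ATPase has a membrane sector (V0) that conducts protons and a catalytic sector (V1) that splits ATP. Of 5 measured genes of the pump 4 rose, 0 fell and 1 did not pass, with a median difference of 0.49. Higher calls were thus 80% of the 5, against 25.5% of all genes. Of 11 other V-ATPase genes tested, 2 rose and 2 fell (18.2% each), so the 5 do not stand for the whole pump. Atp6v1a encodes the catalytic A subunit. Atp6v1a (probe set 1422508_at) measured 11.67, 11.71, 11.65 and 12.04 in KO replicates 2 to 5, against 11.00, 10.85, 10.92 and 10.97 in WT replicates 1 to 4, on the log2 scale. KO replicate 5 stood above the other 3 KO arrays, and all 4 were above every WT array. KO livers were 1.78-fold higher (difference 0.83 ± 0.12 SE, adjusted p = 0.0005 by limma). Its second probe set differed by 0.95. The B subunit, its partner in the same ring, gave another result. On probe set 1415814_at, Atp6v1b2 had log2 signals of 11.86, 11.84, 11.59 and 12.20 in the KO livers, against 11.81, 11.91, 12.08 and 11.84 in the WT livers. The groups overlapped. The difference of -0.04 (SE 0.14) did not pass (adjusted p = 0.83 by limma).

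Atp6v0d1 encodes the d subunit of V0, which joins it to the central stalk. In KO replicates 2 to 5 Atp6v0d1 (1415671_at) gave log2 signals of 12.00, 12.30, 12.00 and 12.26, against 11.60, 11.58, 11.74 and 11.66 in WT replicates 1 to 4. All KO arrays were above all WT arrays. It was 1.41-fold higher in KO livers (log2 difference 0.49, SE 0.11, adjusted p = 0.0055 by limma). Atp6v1h, the H subunit that holds the free V1 sector silent, rose on both tested probe sets. The Atp6v1h signals (1415826_at, log2) were 11.05, 11.21, 11.00 and 10.99 in KO livers, against 10.66, 10.73, 10.76 and 10.65 in WT livers. The groups did not overlap, and both were tight. For Atp6v1h the log2 difference was 0.36 (SE 0.09), or 1.29-fold higher in KO livers, with an adjusted p of 0.011 by limma. On its second probe set the WT mean was far under a signal of 100, the fitted difference was 2.91 and the bound was at least 1.81-fold higher in KO livers. Atp6ap1 is an accessory protein needed to assemble the pump. Log2 signals of Atp6ap1 (probe set 1449622_s_at) were 11.26, 11.85, 11.74 and 11.86 in KO replicates 2 to 5, against 11.27, 10.93, 11.01 and 11.12 in WT replicates 1 to 4. WT replicate 1 and KO replicate 2 were nearly equal. KO livers were 1.51-fold higher (difference 0.60 ± 0.16 SE, adjusted p = 0.011 by limma).

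Of the 37 genes, Lamp2, Gla, Ids and Atp6ap1, lie on the X chromosome, where the female WT replicate 1 could stand apart. Without that array their differences were 0.61, 0.53, 0.43 and 0.66, against 0.59, 0.52, 0.36 and 0.60 with it, and all 4 stayed called.

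Where several probe sets of a gene were tested they mostly moved together. Of 20 genes with several, 6 had all of them called in 1 direction, 8 had some called, 6 had none and 0 had calls in both directions. Of the 29 further probe sets 28 had the sign of the brightest. Counting any probe set, 25 genes were called higher and 3 lower.

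**Figure D3:**
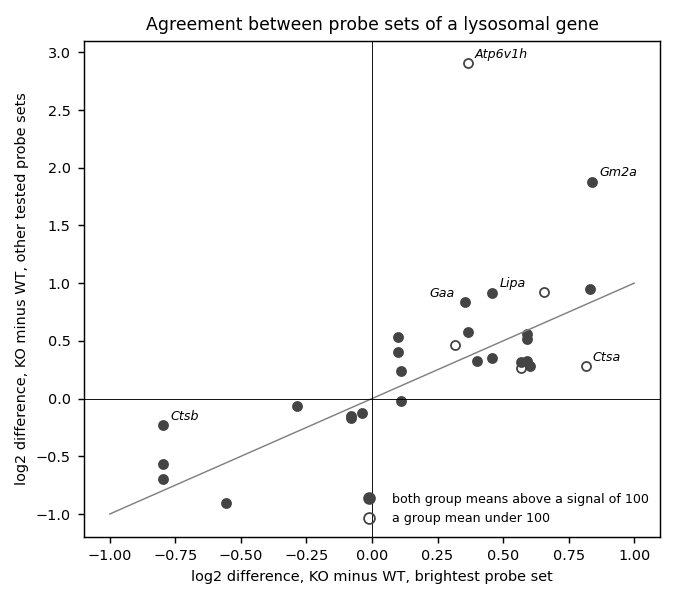
Log2 difference (KO minus WT) of the brightest probe set of a gene (x axis) against that of each of its other tested probe sets (y axis), 29 points from 20 lysosomal genes, with a line where both are equal and open points where a group mean was under a signal of 100. Of the points, 28 share the sign of the brightest, and the farthest from the line is the open point of Atp6v1h at 2.91.

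A further 82 lysosomal genes, outside the 38, were read the same way. Of 69 tested, 21 rose (30.4%), 9 fell (13.0%) and 39 did not pass, with a median difference of 0.20. These shares lie near those of all genes (25.5% and 21.0%), so the counts here and in the smaller sets that follow are a description only. Other membrane proteins and transporters rose in 6 of 12 and fell in 0, other proteases rose in 3 and fell in 2 of 11, and other hydrolases rose in 4 and fell in 2 of 16. Of 11 other V-ATPase genes 2 rose and 2 fell. Genes of mannose 6-phosphate sorting rose in 3 and fell in 1 of 6, and MiT factors and their regulators rose in 3 and fell in 2 of 13.

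Beside Flcn and Tfe3, the largest rise was Ppt1, the thioesterase that strips palmitate from proteins. Ppt1 had log2 signals of 9.89, 10.21, 10.19 and 10.04 in KO replicates 2 to 5, against 9.05, 9.04, 8.93 and 9.05 in WT replicates 1 to 4. Ppt1 was 2.10-fold higher (difference 1.07, SE 0.11, adjusted p = 8.5e-05 by limma). The largest falls were Ctsf, a cysteine cathepsin, Acp5, an iron-containing acid phosphatase, and Lamtor5, a subunit of the complex that anchors mTORC1 signalling at the lysosome. Ctsf had 6.08, 6.82, 6.79 and 7.20 in KO replicates 2 to 5, against 8.72, 8.59, 8.55 and 8.32 in WT replicates 1 to 4. Acp5 had 10.98, 11.16, 10.92 and 10.44 in KO livers, against 12.68, 12.68, 12.47 and 12.55 in WT livers. Lamtor5 had 11.80, 12.09, 11.30 and 11.91 in KO livers, against 12.95, 13.09, 12.95 and 13.08 in WT livers. In each of these the groups were fully apart. The differences were -1.82 for Ctsf (adjusted p = 0.00024 by limma), -1.72 for Acp5 (adjusted p = 5.7e-05) and -1.24 for Lamtor5 (adjusted p = 0.00038).

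How many lysosomal genes passed depended on how the arrays were put on a common scale. The deposited scaling left the median gene at 0.06. Quantile normalization gave 15 higher and 4 lower (16.5% and 25.8% of all genes), the 75th percentile 8 and 7 (12.9% and 36.8%), poly-A controls 10 and 3 (15.2% and 14.9%) and hybridisation controls 33 and 0 (75.2% and 2.78%). The 75th percentile, poly-A and hybridisation scalings each shift every gene by 1 constant, to all-gene medians of -0.20, -0.03 and 0.81, and so leave the lysosomal median 0.39 above that of all genes by construction. Under quantile normalization, which is not a constant shift, it stood 0.37 above. Atp6v1a, Ctsa, Gm2a, Hexa, Lamp2, Npc1 and Sgsh were called higher under all 4 other scalings. The falls of Ctsb, Ctsh and Tfeb were called under 3 of the 4 and lost with hybridisation controls, where all genes shift up and Ctsh turned to 0.19 and Ctsb and Tfeb stood at -0.05 and -0.11. The cathepsin median turned to -0.16 with the 75th percentile, as the same shift applies to all genes.

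**Figure D4:**
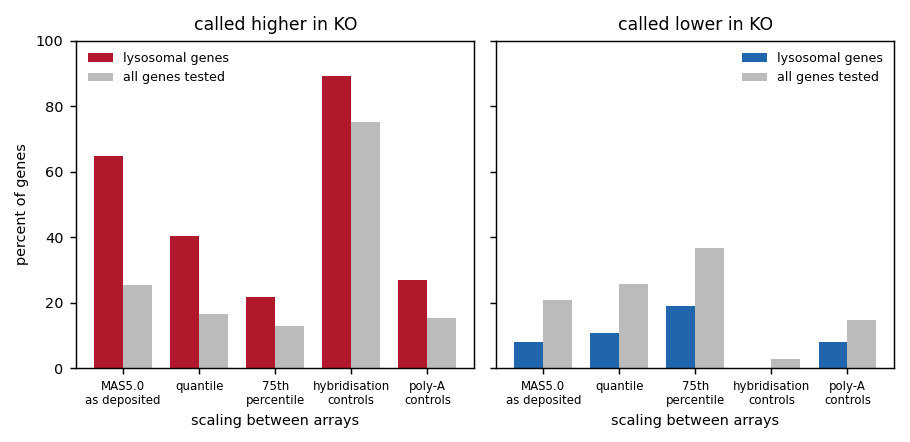
Percent of the 37 lysosomal genes (coloured bars) and of all 11275 genes tested (grey bars) called higher (left) or lower (right) in KO livers, under the deposited scaling and 4 others along the x axis. Higher calls range from 21.6% with the 75th percentile to 89.2% with hybridisation controls, and the grey bars range from 12.9% to 75.2%.

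The KO arrays were not alike in these genes. The median member stood 0.31, 0.48, 0.34 and 0.64 above its WT mean in KO replicates 2 to 5. KO replicate 5 was the highest KO array in 17 of the 24 risen genes (70.8%), against 37.8% of all genes called higher, and KO replicate 2 was the lowest in 14. The SD among KO arrays exceeded that among WT arrays in 34 of 37 genes (91.9%), against 72.2% of all genes. Without KO replicate 5, 21 of the 24 rises and the 3 falls were still called, and Ctsl, Gaa and Neu1 were lost. With KO replicates 2 and 4 alone against WT, 17 rises and the 3 falls were called, and with replicates 3 and 5 alone 22 and 3 (20.4% and 27.1% of all genes were higher in these fits).

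Markers of the cell types of the liver were read beside them. Under the deposited scaling 25.5% of all genes were called higher and 21.0% lower. Macrophage markers, whose cells are rich in lysosomes, rose in 0 and fell in 2 of 15 tested (13.3%, under the share of all genes). Their median difference was -0.42, and their summed signal was 13947 to 27205 in KO livers, against 20807 to 25999 in WT livers. Cd163, Siglec1 and Vsig4 were under a signal of 100 on every array. The 2 that fell were Timd4 (difference -1.23, adjusted p = 0.00011 by limma) and Clec4f (at least 1.72-fold lower, adjusted p = 0.0020). Without KO replicate 5 the count that fell was 10 of 15 (66.7%, against 18.9% of all genes, median -0.61), with KO replicates 2 and 4 alone it was 12 (80%, against 17.6% of all genes), and with the 75th percentile 10 (66.7%, against 36.8%). With hybridisation controls 5 were higher and 2 lower. By array their median stood at -0.86, -0.50, -0.99 and 0.16 relative to WT in KO replicates 2 to 5, highest on the array where the lysosomal genes were highest. Granulocyte markers rose in 2 of 9 (22.2%, near the 25.5% of all genes), Mpo (difference 1.02) and Prtn3 (difference 0.78). The Prtn3 call was not stable (adjusted p up to 0.074 by limma with an array left out, and called under 3 of the 4 other scalings). The granulocyte markers summed to 123131 on KO replicate 5 and to 47225 to 58741 on the other KO arrays, against 46036 to 53998 in WT livers.

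Endothelial markers rose in 7 of 10, led by Pecam1 (1.73), Kdr (1.19) and Tie1 (1.01), with sums of 7793 to 9313 in KO livers, against 6220 to 6717 in WT livers. Stellate markers rose in 4 of 7, led by Col1a1 (1.58), Col1a2 (1.02) and Pdgfrb (1.01), with sums of 15731 to 23699, against 11754 to 12571. Megakaryocyte markers rose in 4 of 6, led by Vwf (1.78), Itga2b (1.76) and Gp1bb (0.77), with sums of 27722 to 35494, against 23324 to 26552. Erythroid markers fell in 8 of 8, led by Hbb-b2 (-5.12), Ank1 (-3.02) and Hba-a2 (at least 3.88-fold lower), with sums of 29101 to 31430, against 82008 to 91381. Hepatocyte markers fell in 6 of 9, led by Apoa1 (-0.70), Ttr (-0.67) and Alb (-0.63), and Apob rose (0.62). The part of these cell types, and of the array quality measures, in the lysosomal differences was not tested. Of those measures, 18S ribosomal RNA signal averaged 7.67 to 8.32 in KO livers, against 11.83 to 12.03 in WT livers, and the hybridisation controls 11.54 to 11.85, against 12.36 to 12.55. The 3′ minus 5′ log2 signal of Actb, a sign of RNA quality, was 0.49 to 0.61 in KO livers, against 0.76 to 0.93 in WT livers. The median linear signal of an array was 96.7 to 114 in KO livers, against 79.5 to 84.1 in WT livers. None of these 4 measures overlapped between the groups.

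**Figure D5:**
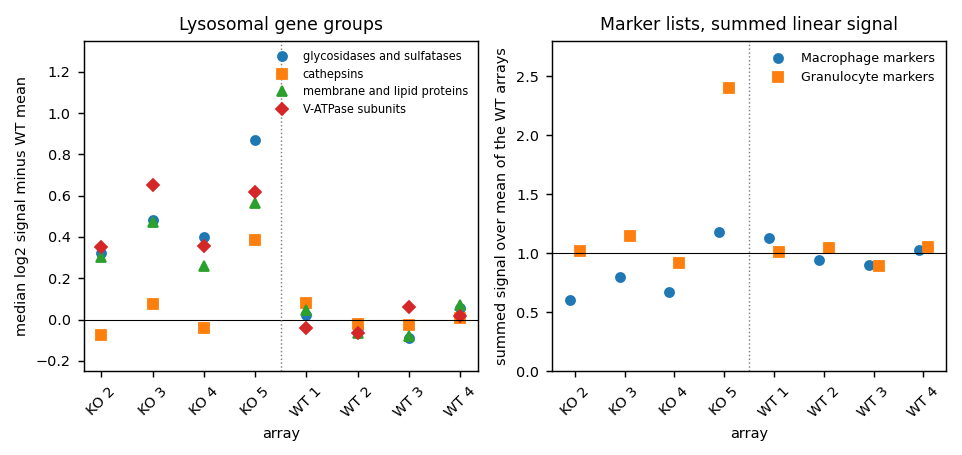
Left, median log2 signal minus the WT mean for each group of lysosomal genes on each array, and right, summed linear signal of macrophage and granulocyte markers over the mean of the WT arrays, with KO arrays left of WT arrays in both. KO replicate 5 is the highest KO array for cathepsins (0.39), glycosidases and sulfatases (0.87), membrane and lipid proteins (0.57) and both marker lists, while V-ATPase subunits are highest on KO replicate 3 (0.65).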

How the data were processed

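Total RNA of 4 KO and 4 WT fetal livers (E14.5) was hybridised to Affymetrix arrays that cover the mouse genome, 1 array per liver; the 45101 probe sets are those of the full-genome version. The authors made the deposited values with MAS5.0 and left them as a linear intensity for each probe set and array, with the same trimmed mean of 500.003 (2% left out at each end). MAS5 and R 3.0.2 are named in the submitters' processing notes. No column of per-sample values was left out. Arrays carry no count of molecules, and their number limits the precision. 

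Signals were log2-transformed without a pseudocount. Probe sets with a KO or WT mean above a signal of 100, control probe sets left out, were fitted with limma 3.58.1 (lmFit and eBayes, two-sided) in R 4.3.3, with a single term for genotype and p-values adjusted by Benjamini-Hochberg over 23379 probe sets. Python 3.11.15 with pandas 2.3.3 and numpy 2.4.6 did the rest. Genes were named only from probe sets of a single symbol. Folds against a group mean under 100 were taken against 100 and written as at least. On simulated data of 23379 probe sets, 76 of 100 changed by log2 1 and 97 of 100 changed by log2 2 were recovered, with 13 false calls. The simulated arrays all had the spread of the WT arrays, and few probe sets were changed. In the data the KO SD exceeded the WT SD in 72.2% of all genes, and 52.2% of probe sets were called. The simulated figures therefore need not hold for the real KO and WT arrays.

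The members and lists were chosen with earlier results of these data known. All called members, the 3 largest rises and falls of the further lysosomal list and up to 3 called markers each way were named. Alternatives were other scalings (quantile, 75th percentile, 18 hybridisation or 24 poly-A control probe sets). Others were pseudocounts of 16 and 64, no filter or a minimum of 200, and limma's trend and robust options. A t-test with unequal variances and Benjamini-Hochberg adjustment was also run. So were the mean of a gene's probe sets, the replicate number as a block and each array left out. KO replicates 2 and 4 or 3 and 5 alone, and arrays numbered 2, 3 and 4 without a block, were added after seeing the data. Promoter sequences are from RefSeq (GRCm38.p6).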

Additional observations from a re-analysis of the deposited data

Results flagged for a closer look

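Atp6v1a on KO replicate 5 had a log2 signal of 12.04, while the other 3 KO arrays lay at 11.65 to 11.71, and the gap took up 0.846 of the range of the group, above Dixon's limit for 4 values. It was the one such value among 74 groups tested (37 genes in each genotype), and chance alone gives about 1 in 20. Without this array Atp6v1a was still called higher in KO livers.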

How the results depend on the processing

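Of the 27 calls among the lysosomal genes, Atp6v1a, Ctsa, Hexa and Npc1 kept theirs under all 20 alternatives tried apart from the 3 added later, and 20 kept theirs whichever array was left out. With 1 array left out the lysosomal genes gave 17 to 24 higher calls and 3 to 4 lower ones, the cathepsins 2 to 3 higher, the glycosidases and sulfatases 7 to 12 higher and 0 to 1 lower (1, Gusb, without KO replicate 2), the membrane and lipid proteins 4 to 5 higher, the V-ATPase genes 4 to 4 and the other lysosomal genes 16 to 21 higher. Over all 11275 genes tested, these fits gave 2428 to 2816 higher and 1968 to 2425 lower. The causes of the changes below were not tested, and Sgsh was too dim to be tested at a minimum signal of 200.

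Quantile normalization gave 15 lysosomal genes higher, of which 5 were glycosidases or sulfatases, and 1 glycosidase (Hyal2) lower. The 75th percentile gave 5232 probe sets higher and 7185 lower in all, 8 lysosomal genes higher and 7 lower, with 1 cathepsin, 4 glycosidases and sulfatases, 2 membrane and lipid genes and 1 V-ATPase gene higher, 2 glycosidases and sulfatases and 3 membrane and lipid genes lower, and 8 other lysosomal genes higher and 19 lower. Hybridisation controls gave 18139 probe sets higher and 603 lower, 0 lysosomal genes lower (0 cathepsins and 0 membrane and lipid genes), 6 cathepsins and 7 membrane and lipid genes higher, and 58 other lysosomal genes higher and 3 lower. Poly-A controls gave 10 lysosomal genes higher, made up of 1 cathepsin, 5 glycosidases and sulfatases, 2 membrane and lipid genes and 2 V-ATPase genes, and 9 other lysosomal genes. With no filter 14 lysosomal genes were higher (37.8%, against 10.9% of all genes), among them 1 cathepsin and 6 glycosidases and sulfatases. In that fit 12 other lysosomal genes were higher (16.2%). The t-test with unequal variances gave 6 glycosidases and sulfatases (37.5%) and 13 other lysosomal genes (18.8%) higher, against 19.2% of all genes. It gave 0 membrane and lipid genes lower, against 16.6% of all genes.

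Deviations of KO and WT arrays with the same number correlated at -0.00084, -0.082 and -0.027 for numbers 2, 3 and 4. The labels do not say what the numbers mark. These correlations cannot show whether arrays of the same number share anything else. With the replicate block, 7 lysosomal genes were higher (1 cathepsin, 2 glycosidases and sulfatases, 2 membrane and lipid genes, 2 V-ATPase genes). That is 18.9% of the lysosomal genes and 12.5% of the glycosidases and sulfatases, against 13.8% of all genes. In that fit 8 other lysosomal genes were higher (11.6%) and 2201 probe sets were lower. The same 6 arrays without the block gave 18 lysosomal genes higher (48.6%, against 18.9% of all genes) and 1 cathepsin. KO replicates 2 and 4 alone gave 1 cathepsin higher (12.5%, against 20.4% of all genes). KO replicates 3 and 5 alone gave 1 glycosidase (Gusb) lower (6.25%, against 25.3% of all genes).

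The 75th percentile, hybridisation and poly-A scalings move the difference of every gene by 1 constant, so a sign that turns under them is not particular to a gene. Ctsh, at 0.19 with hybridisation controls, was the one called gene whose sign turned, and the other turns were in genes not called. With hybridisation controls Ctss stood at 0.61, Hyal2 at 0.48, Gusb at 0.46, Lamp1 at 0.64, Npc2 at 0.67 and Atp6v1b2 at 0.71. With quantile normalization Lamp1 stood at 0.16, Npc2 at 0.16 and Atp6v1b2 at 0.12. With the 75th percentile Ctsc stood at -0.16 and Ctsz at -0.15. With an array left out Ctsc ranged from -0.12 (without KO replicate 5) to 0.20 (without KO replicate 4), Ctss from -0.30 to 0.049 (without KO replicate 2), Npc2 from -0.15 to 0.0026 (without KO replicate 2), Ctsz from -0.0079 (without WT replicate 2) to 0.18, and Atp6v1b2 from -0.15 to 0.054 (without KO replicate 4, and 0.015 without WT replicate 3). Ctsc was -0.08 in the replicate block and in the same arrays unblocked and -0.19 with KO replicates 2 and 4 alone. With replicates 3 and 5 alone Ctss was 0.15, Lamp1 0.042 and Atp6v1b2 0.11.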
